A study of Mus musculus with 11 samples.

Results

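The inducible heat shock proteins and cochaperones described here are 10 genes chosen by name, Hspa1a, Hspa1b, Hspa8, Hsp90aa1, Hsph1, Dnajb1, Hspb1, Bag3, Hspd1 and Hspe1. Each matched 1 row of the 54532 in the count table, and all 10 were among the 14113 genes with enough counts to test. Bulk polyadenylated RNA of whole pancreas from C57BL/6JRj mice was available as 11 libraries, which the labels number by mouse within each group. They were taken to be of different mice, and the labels name no altered allele in any group. The young mice were 7 weeks old and the aged mice 18 months old. There were 3 young untreated (Y_control), 2 aged untreated (A_control), 3 young caerulein (Y_5H) and 3 aged caerulein (A_5H) libraries. Caerulein, an analogue of cholecystokinin that drives acinar secretion and in excess injures the pancreas, was given intraperitoneally at 125 µg/kg in 4 hourly doses, and because the descriptions leave the sampling time ambiguous it is given only as the 5H of the group names. The study set out to see how age affects the start of pancreatitis.

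Heat shock proteins are chaperones that bind unfolded or damaged proteins. In most cells the inducible members are switched on by the factor HSF1, which binds repeats of a short unit called the heat shock element in their promoters. HSP70 proteins work in cycles: J proteins deliver substrates and start ATP hydrolysis, and exchange factors such as HSP110 and BAG proteins release them. HSP90 takes over late folding steps of kinases and receptors, small heat shock proteins hold unfolded chains in a soluble state, and the HSP60 and HSP10 pair forms the folding chamber of mitochondria. Acinar cells, the main cells of the pancreas, make large amounts of secreted enzymes and depend on chaperones of the cytosol and of the endoplasmic reticulum.

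Total counts per library ran from 14223190 to 26537091. The 7 acinar markers summed to between 230000 and 336000 CPM (counts per 1e+06 counts of a library) in all 11 libraries, so the defining markers of the labelled tissue were present. The library of young untreated mouse 2 stood apart: its B and plasma cell markers summed to 165 CPM (at most 5.0 in the other libraries), its T cell markers to 69.4 CPM (at most 0.703) and its adipocyte markers to 256 CPM (at most 28.5). For several results of the members that this library moves, the value without it is given beside the result. The labels do not say more of the mice than their numbers, so p-values measure the spread between these libraries.

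The promoters of the members are shown first because HSF1 elements are what this gene group is known for. RefSeq windows on GRCm38.p6, which run from 250 bases before to 50 bases after a start that RefSeq gives a gene, were found for 8 of the 10 members (11 windows). The windows were searched on both strands for a 3-unit element (GAANNTTCNNGAA, or TTCNNGAANNTTC on the other strand) and for 2 adjoining units (GAANNTTC or TTCNNGAA), and a 3-unit match always contains 2-unit matches. In the sequences below, capitals mark every such match, and all 5 windows are written 5′ to 3′ on the gene's own strand. Hspa1a is shown for the most inducible pair, Hspb1 for 2 separate 2-unit matches, and Hsph1, Hspd1 and Hspe1 for their 3-unit matches.
Hspa1a (chr17:34972107-34972406, minus strand): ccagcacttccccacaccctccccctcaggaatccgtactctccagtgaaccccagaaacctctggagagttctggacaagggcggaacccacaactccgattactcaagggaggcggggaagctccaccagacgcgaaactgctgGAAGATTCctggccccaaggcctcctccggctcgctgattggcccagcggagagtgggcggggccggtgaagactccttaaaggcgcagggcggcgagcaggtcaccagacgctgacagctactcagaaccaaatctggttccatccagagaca
Hspb1 (chr5:135887669-135887968, plus strand): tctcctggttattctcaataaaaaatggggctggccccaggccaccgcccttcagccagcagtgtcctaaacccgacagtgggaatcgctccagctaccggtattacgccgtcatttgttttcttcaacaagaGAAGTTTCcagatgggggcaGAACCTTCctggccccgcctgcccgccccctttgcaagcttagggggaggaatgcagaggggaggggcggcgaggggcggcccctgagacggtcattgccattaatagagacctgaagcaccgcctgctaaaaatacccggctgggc
Hsph1 (chr5:149636266-149636565, minus strand): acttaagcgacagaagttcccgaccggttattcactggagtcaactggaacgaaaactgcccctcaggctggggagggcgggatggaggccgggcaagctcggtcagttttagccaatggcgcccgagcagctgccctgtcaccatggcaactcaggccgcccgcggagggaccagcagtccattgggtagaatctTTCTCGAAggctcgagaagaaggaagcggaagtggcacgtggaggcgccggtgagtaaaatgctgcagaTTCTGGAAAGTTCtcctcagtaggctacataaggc
Hspd1 (chr1:55087883-55088182, minus strand): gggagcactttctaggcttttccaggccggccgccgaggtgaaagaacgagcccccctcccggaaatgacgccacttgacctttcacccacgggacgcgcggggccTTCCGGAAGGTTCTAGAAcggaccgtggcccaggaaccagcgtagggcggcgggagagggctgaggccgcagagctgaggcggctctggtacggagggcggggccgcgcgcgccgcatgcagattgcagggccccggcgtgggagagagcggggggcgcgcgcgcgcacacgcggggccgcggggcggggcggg
Hspe1 (chr1:55087898-55088197, plus strand): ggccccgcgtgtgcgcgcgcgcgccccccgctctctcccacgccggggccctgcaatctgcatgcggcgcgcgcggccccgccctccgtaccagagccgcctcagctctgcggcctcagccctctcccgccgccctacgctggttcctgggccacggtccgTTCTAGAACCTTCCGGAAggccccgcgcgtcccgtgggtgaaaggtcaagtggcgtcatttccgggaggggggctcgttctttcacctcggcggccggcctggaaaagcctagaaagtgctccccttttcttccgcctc

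The 3-unit element was in windows of 3 members (Hsph1, Hspd1 and Hspe1), while 0.603% of all 32851 windows of 300 bases hold it. The 2-unit element was in windows of 7 of the 8 members with a window, and in 15.1% of all windows. Hspa8 and Hsp90aa1 had no window and were not searched. Counts per member are not directly comparable with shares per window, because some members have more than 1 window. Some windows also share a site or nearly the whole sequence, as described next. Hspd1 and Hspe1 lie head to head, and the stretch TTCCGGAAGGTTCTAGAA of the Hspd1 window is the stretch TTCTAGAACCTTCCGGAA of the Hspe1 window read on the other strand, so it is 1 site shared by both genes. It begins 144 bases before the start in the Hspd1 window shown and 89 bases before the start in the Hspe1 window. The Hspd1 window shown lies wholly inside the gene as the count table places it (chr1:55077835-55088243). The other Hspd1 window (chr1:55088194-55088493), which spans the 5′ end of that gene, held 0 matches of either element. The Hspa1a and Hspa1b windows differed at 4 of 300 bases and hold the same 2-unit match 104 bases before the start. In the Hsph1 window shown the 3-unit match begins at base 15 after the start. In Hspb1 the first match begins 117 bases before the start, and in Bag3 the only match begins at base 42 after it. No match was found in the Dnajb1 windows. The CCAAT box, searched on both strands by those 5 letters, was in windows of 5 members against 37.4% of all windows. The TATA box, searched on both strands as TATAAA, was in windows of 0 members against 13.6%. These are matches of letters in these windows, not measured binding.

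Several members have near copies in the genome, and this bears on how exactly their reads can be assigned. Hspa1a (ENSMUSG00000091971, mm10 chr17:34969190-34972156, minus strand) and Hspa1b (ENSMUSG00000090877, chr17:34956436-34959238, minus strand) are neighbouring genes of 1 exon each. Of all 150-base stretches of the Hspa1a transcript, 46% also occur in another gene's transcripts, and of the Hspa1b transcript 40.5%. Hspa1a took between 29.5% and 34.4% of the pair's counts in the 6 treated libraries, so the split hardly varied, and the pair is also given as a sum below. For Hspa8 (chr9:40800984-40810087) the shared part was 49.3%, mostly with Gm26825, which had a count of 0. For Hsp90aa1 (chr12:110690605-110702728) it was 30.9%, and its near copy Gm12346 reached at most 580 counts where Hsp90aa1 reached 32914. Hspb1 (chr5:135887919-135889563) shared 39.1% with Hsp25-ps1 (at most 9 counts), Hspd1 (chr1:55077835-55088243) 16.1% with Hspd1-ps3 (at most 195 counts) and Hspe1 (chr1:55088132-55091307) 14.1%. Hsph1 (chr5:149614287-149636376), Dnajb1 (chr8:83608193-83612653) and Bag3 (chr7:128523616-128546981) shared none. Hspd1 and Hspe1 overlap by 112 bases on opposite strands, and without a stated strand setting reads of that overlap cannot be told apart. How reads that match several genes were counted was not examined. Low counts of a near copy therefore do not show that the shared reads were kept for the member.

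In untreated pancreas the constitutive chaperones were present and the inducible HSP70 pair was close to absent. Per kilobase of gene length, Hspa8, the constitutive cytosolic HSP70, was the highest member in young untreated libraries at 29.0 ± 7.39 CPM per kb (SD, n = 3) and in aged untreated libraries at 32.3 ± 3.62 (n = 2). It was followed in young mice by Hspe1 (13.6 ± 1.49), Hspd1 (11.5 ± 0.474), Hspb1 (11.2 ± 4.86) and Hsp90aa1 (9.28 ± 1.53), whose neighbouring levels overlapped. Bag3 (4.0 ± 0.478), Dnajb1 (2.14 ± 1.08) and Hsph1 (1.14 ± 0.298) came next, the last pair overlapping. Hspa1b (0.298 ± 0.208) and Hspa1a (0.114 ± 0.0833) were lowest and overlapped. The order of the 10 genes was the same in aged untreated libraries, but it depended on the young library that stands apart: without mouse 2 the young order was Hspa8 (24.8), Hspb1 (13.7), Hspe1 (12.9) and Hspd1 (11.6), with the other 6 genes at the same ranks. The members together made up 0.0161%, 0.0332% and 0.018% of all counts in young untreated mice 1, 2 and 3, and 0.0204% and 0.0191% in aged untreated mice 2 and 3. Mouse 2 is the highest of these, and without it the young mean (0.017%) lies below the aged mean (0.0197%) rather than above it (0.0224% ± 0.00939).

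After caerulein all 10 members were higher in every young treated library than in any young untreated one, and all 10 rose by the test (edgeR quasi-likelihood F test, Benjamini-Hochberg adjusted p from 1.44e-07 to 9.64e-05). Of all genes tested, 27.5% were called higher in that comparison, and 30.7% were higher without overlap. In aged mice 9 of 10 rose (27.0% of all genes were called higher) and 10 of 10 did not overlap (37.8% of all genes). The median log2 fold change of the members was 4.01 in young and 3.47 in aged mice, beside -0.061 and 0.07 over all genes tested. The members' share of all counts reached 0.565% ± 0.171 in young and 0.376% ± 0.0262 in aged treated libraries.

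**Figure D1:**
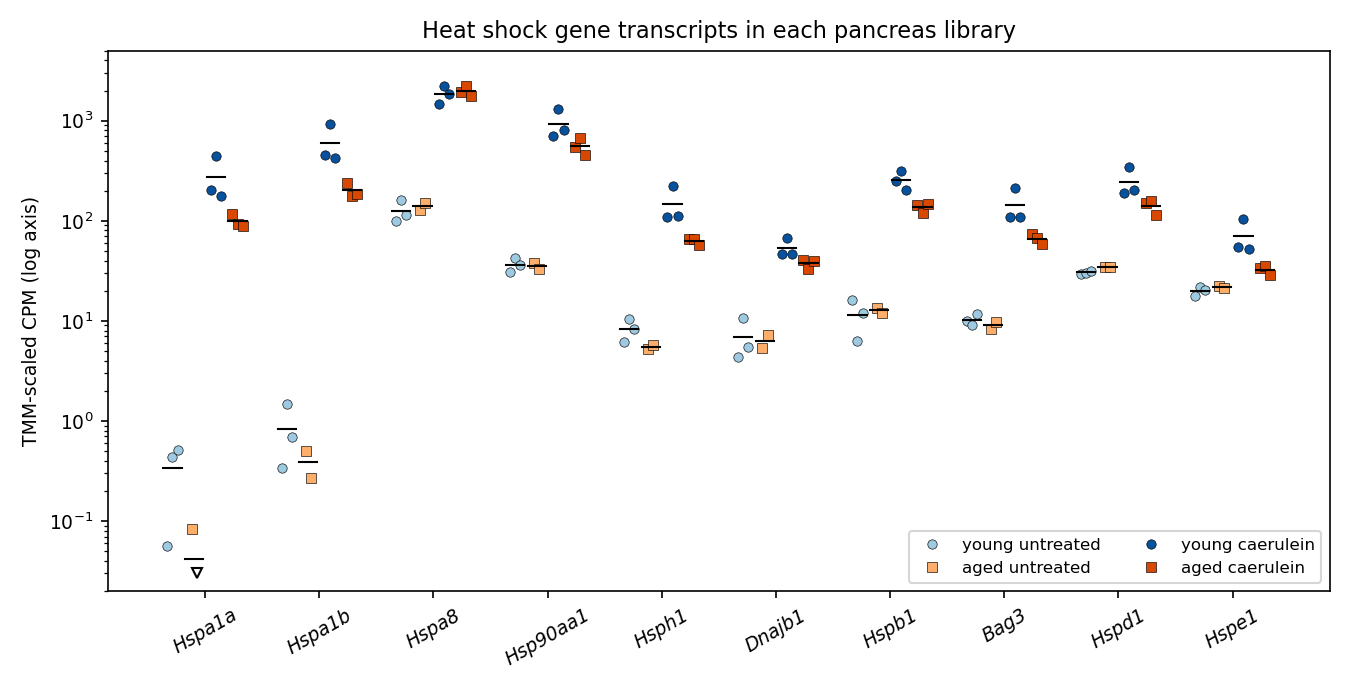
TMM-scaled CPM (log axis) of the 10 genes in each of the 11 libraries; points are mice, bars are group means, and the open triangle marks the aged untreated library with 0 counts of Hspa1a. Every treated library lies above every untreated library for all 10 genes, and the aged treated points lie below the young treated points for every gene except Hspa8.

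Hspa1a and Hspa1b encode the same kind of strictly stress-inducible cytosolic HSP70. Hspa1a stood at 0.0562, 0.44 and 0.518 CPM in the young untreated mice 1, 2 and 3, at 0.084 and 0 CPM in the aged untreated mice 2 and 3, at 201, 449 and 175 CPM in the young treated mice and at 117, 92.8 and 89.5 CPM in the aged treated mice. It rose in young mice by a log2 fold change of 9.61 ± 0.56 (SE, adjusted p = 2.1e-07, 780-fold). In aged mice the 2 untreated libraries held 1 count of Hspa1a in all against 6574 in the treated ones, which is a depth-corrected ratio of 3080 with an exact 95% counting interval from 553 to 122000, and the adjusted p was 2.11e-06. Such intervals cover counting error only.

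Hspa1b stood at 0.337, 1.48 and 0.691 CPM in young untreated, 0.504 and 0.271 in aged untreated, 458, 928 and 420 in young treated and 239, 177 and 187 CPM in aged treated libraries. It rose by a log2 fold change of 9.40 ± 0.52 in young (adjusted p = 1.44e-07) and 9.07 ± 0.67 in aged mice (adjusted p = 1.48e-06). Without young untreated mouse 2, which had the highest untreated level, the young mean before treatment was 0.514 in place of 0.835 CPM and the log2 fold change 10.12. The sum of the pair, which does not depend on how shared reads were split between them, went from 1.17 ± 0.763 to 877 ± 434 CPM in young and from 0.429 ± 0.224 to 300 ± 47.9 CPM in aged mice. Per kilobase the sum of the pair went from 0.412 ± 0.268 CPM, below every other member, to 307 ± 152 CPM in young treated libraries.

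Hspa8, the constitutive HSP70 that also uncoats clathrin vesicles, started high. It stood at 99, 160 and 115 CPM in young untreated, 128 and 150 in aged untreated, 1470, 2210 and 1830 in young treated and 1940, 2220 and 1750 CPM in aged treated libraries. It rose by 3.88 ± 0.23 on the log2 scale in young (14.7-fold, adjusted p = 2.54e-07) and by 3.83 ± 0.28 in aged mice (14.2-fold, adjusted p = 1.36e-06). Treated values of the ages overlap, and every treated value is above every untreated one.

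Hsph1, the HSP110 that releases nucleotide from HSP70, was at 6.18, 10.5 and 8.23 CPM in young untreated, 5.21 and 5.69 in aged untreated, 108, 224 and 111 in young treated and 65.7, 65.9 and 57.1 CPM in aged treated libraries. It rose by 4.14 ± 0.31 in young and 3.52 ± 0.36 in aged mice (log2; adjusted p = 1.14e-06 and 1.6e-05). The 3 aged treated values lie close together and below all 3 young treated values.

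Dnajb1, the J protein that pairs with inducible HSP70, was at 4.33, 10.8 and 5.47 CPM in young untreated, 5.38 and 7.2 in aged untreated, 46.1, 67.4 and 46.3 in young treated and 40.4, 33.1 and 39.9 CPM in aged treated libraries. It rose by 2.94 ± 0.30 in young and 2.57 ± 0.36 in aged mice (log2; adjusted p = 1.38e-05 and 0.000141). The highest untreated value belongs to young mouse 2, the library that stands apart, and without that library the rise in young mice was still called.

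Bag3, the BAG protein that couples HSP70 and small heat shock proteins to autophagy, was at 10, 9.15 and 11.6 CPM in young untreated, 8.32 and 9.8 in aged untreated, 109, 212 and 108 in young treated and 73.8, 67 and 58.2 CPM in aged treated libraries. It rose by 3.81 ± 0.27 in young and 2.87 ± 0.31 in aged mice (log2; adjusted p = 7.96e-07 and 2.16e-05). Untreated values overlapped between the ages and treated values did not.

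Hsp90aa1, the inducible cytosolic HSP90, was at 30.5, 42.5 and 36.4 CPM in young untreated, 38 and 33.3 in aged untreated, 697, 1300 and 814 in young treated and 552, 670 and 455 CPM in aged treated libraries. It rose by 4.68 ± 0.27 in young and 3.97 ± 0.32 in aged mice (log2; adjusted p = 2.15e-07 and 2.41e-06). The highest aged treated value (670) and the lowest young treated value (697) nearly meet.

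Hspb1, the small heat shock protein also called HSP25 in mouse, was at 16.3, 6.31 and 12 CPM in young untreated, 13.4 and 12.1 in aged untreated, 250, 315 and 204 in young treated and 144, 119 and 146 CPM in aged treated libraries. It rose by 4.48 ± 0.32 in young and 3.42 ± 0.36 in aged mice (log2; adjusted p = 7.88e-07 and 1.78e-05). Here young untreated mouse 2 gave the lowest value of all 11 libraries.

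Hspd1 and Hspe1 encode HSP60 and HSP10 of the mitochondrial folding chamber, and each has a window that holds the shared stretch printed above. Hspd1 was at 29.3, 30.3 and 31.8 CPM in young untreated, 34.3 and 34.9 in aged untreated, 191, 348 and 201 in young treated and 151, 157 and 114 CPM in aged treated libraries. Hspe1 was at 17.6, 22 and 20.5 CPM in young untreated, 22.4 and 21.4 in aged untreated, 54.2, 105 and 52.4 in young treated and 33.7, 35.6 and 28.5 CPM in aged treated libraries. Hspd1 rose by 3.02 ± 0.23 in young and 2.02 ± 0.26 in aged mice (log2; adjusted p = 1.47e-06 and 8.03e-05). Hspe1 rose in young mice by 1.81 ± 0.24 (adjusted p = 9.64e-05), the smallest change of the 10 genes, while in aged mice its log2 fold change of 0.57 ± 0.27 did not pass (adjusted p = 0.105), although its aged treated and untreated libraries do not overlap.

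**Figure D2:**
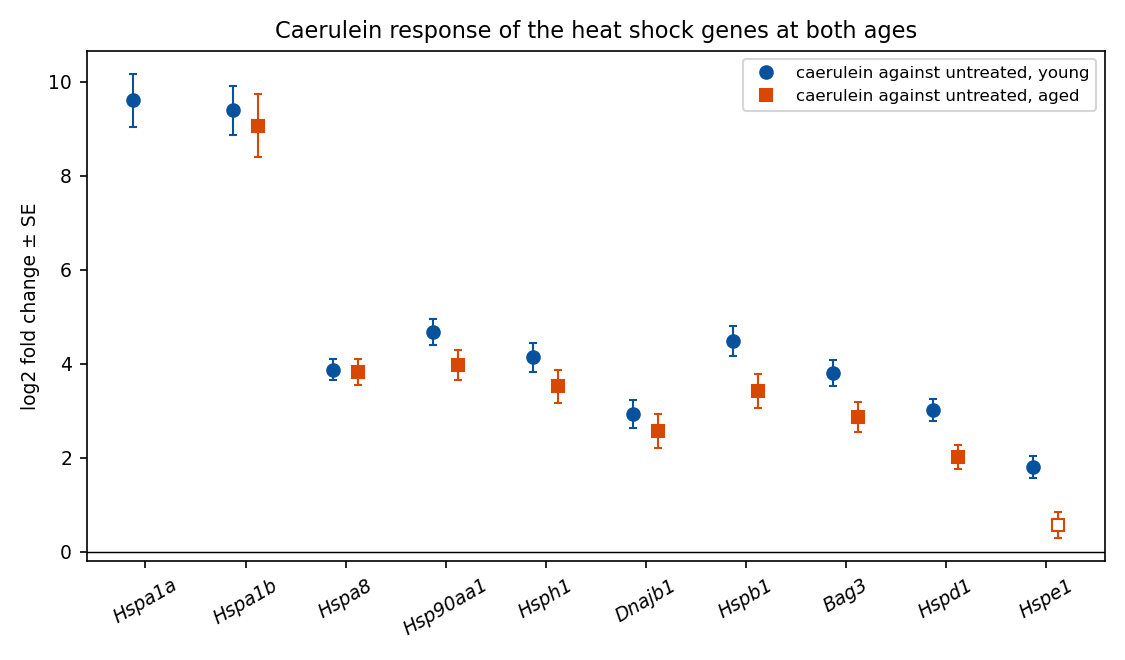
Log2 fold change of caerulein against untreated (± SE) for the 10 genes in young (circles) and aged (squares) mice; filled symbols passed the test at an adjusted p below 0.05. No aged point is drawn for Hspa1a because the aged untreated libraries held 1 count of it, and the open square is Hspe1 in aged mice (0.57 ± 0.27).

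The cell type markers moved with caerulein as well. The 7 acinar markers summed to between 312000 and 336000 CPM in young untreated and between 257000 and 274000 CPM in young treated libraries, and to between 296000 and 327000 against between 230000 and 254000 CPM in aged mice. The 5 ductal markers summed to between 17.6 and 29.7 CPM in untreated and between 140 and 219 CPM in treated libraries of both ages. These sums use unscaled totals, unlike the TMM-scaled levels of the members. The TMM factors, which multiply the totals, were 0.744 to 1.14 in young untreated and 1.19 to 1.29 in young treated libraries. In aged mice they were 0.696 to 0.798 and 1.05 to 1.27. On the TMM scale the acinar falls are therefore larger and the ductal rises smaller. The part of these shifts in the heat shock changes was not tested, and in bulk tissue fewer cells of a type and less RNA per cell cannot be told apart.

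The order of levels per kilobase changed after caerulein. In young treated libraries Hspa8 led with 427 ± 86.7 CPM per kb (SD, n = 3), followed by Hspb1 (249 ± 54.2), Hsp90aa1 (238 ± 81.4) and Hspa1b (215 ± 101), which overlapped each other. Hspd1 (93.4 ± 33.2), Hspa1a (92.7 ± 50.9), Bag3 (55.8 ± 23.4) and Hspe1 (47.8 ± 20.2) formed a second overlapping run, and Hsph1 (20.3 ± 9.1) and Dnajb1 (16.6 ± 3.82) were lowest. In aged treated libraries the order was Hspa8 (458 ± 54.8), Hsp90aa1 (142 ± 27.4), Hspb1 (133 ± 14.6), Hspa1b (71.6 ± 11.9), Hspd1 (53.2 ± 8.91) and Hspa1a (33.6 ± 5.02), then Bag3 (25.9 ± 3.06), Hspe1 (22.1 ± 2.51), Dnajb1 (11.8 ± 1.28) and Hsph1 (8.66 ± 0.69). There Hsp90aa1 overlapped Hspb1 and Bag3 overlapped Hspe1.

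Before treatment, no age difference of these genes passed the test, which had limited power. None of the 10 was called between aged and young untreated libraries (13 genes, or 0.0921% of all tested, were called in either direction). An unadjusted p below 0.05 was reached by 0 members, beside 1320 of all 14113 genes, and DESeq2 called 0 members (59 genes in all). Without young untreated mouse 2 the log2 fold changes of Hsp90aa1, Dnajb1 and Hspb1 changed sign, to 0.079, 0.373 and -0.163. The precision differs between members. The 95% interval of the log2 fold change was from -0.36 to 0.67 for Hspa8 and from -0.35 to 0.72 for Hspd1. It was from -2.98 to 0.47 for Hspa1b and from -6.76 to 0.43 for Hspa1a, which had few counts. Every aged untreated library lay below every young one for Hsph1 (log2 -0.61) and above for Hspd1 (0.18). On simulated counts for this comparison, 20% of genes changed by 1 on the log2 scale were recovered, and 62.2% of those changed by 2.

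Among treated mice the members were lower at 18 months, with Hspa8 as the exception. In all, 5 members were called lower in aged than in young treated libraries, namely Hspa1a, Hspa1b, Hsph1, Bag3 and Hspe1 (5 of 10, where 1.27% of all genes were called lower). For 9 of the 10 every aged treated library lay below every young treated one, as for 13.6% of all genes. The median log2 fold change of the members was -1.01, beside 0.014 over all genes.

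Hspa1b differed most, at 602 ± 283 CPM in young and 201 ± 33.4 CPM in aged treated libraries (log2 -1.58 ± 0.35, 3.0-fold lower, adjusted p = 0.0314). Hspa1a stood at 275 ± 151 against 99.7 ± 14.9 CPM (log2 -1.46 ± 0.35, adjusted p = 0.0466). Hsph1 stood at 148 ± 66.1 against 62.9 ± 5.01 CPM (log2 -1.23 ± 0.27, adjusted p = 0.0308). These were the largest estimates, but members were not tested against each other. The estimates of Bag3 and Hspe1, given next, lie within the error of that of Hsph1.

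Hspe1 stood at 70.4 ± 29.7 against 32.6 ± 3.7 CPM (log2 -1.11 ± 0.24, adjusted p = 0.0274) and Bag3 at 143 ± 60 against 66.3 ± 7.84 CPM (log2 -1.11 ± 0.24, adjusted p = 0.0291). The members that did not pass were Hspb1 (log2 -0.91 ± 0.27, adjusted p = 0.0962), Hspd1 (-0.81 ± 0.21, adjusted p = 0.064), Hsp90aa1 (-0.74 ± 0.24, adjusted p = 0.115), Dnajb1 (-0.50 ± 0.28, adjusted p = 0.383) and Hspa8. For Hspa8 the log2 fold change was 0.10 ± 0.21 with a 95% interval from -0.36 to 0.56 (adjusted p = 0.856), so a change of the size seen for Hspa1b lies outside its interval.

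**Figure D3:**
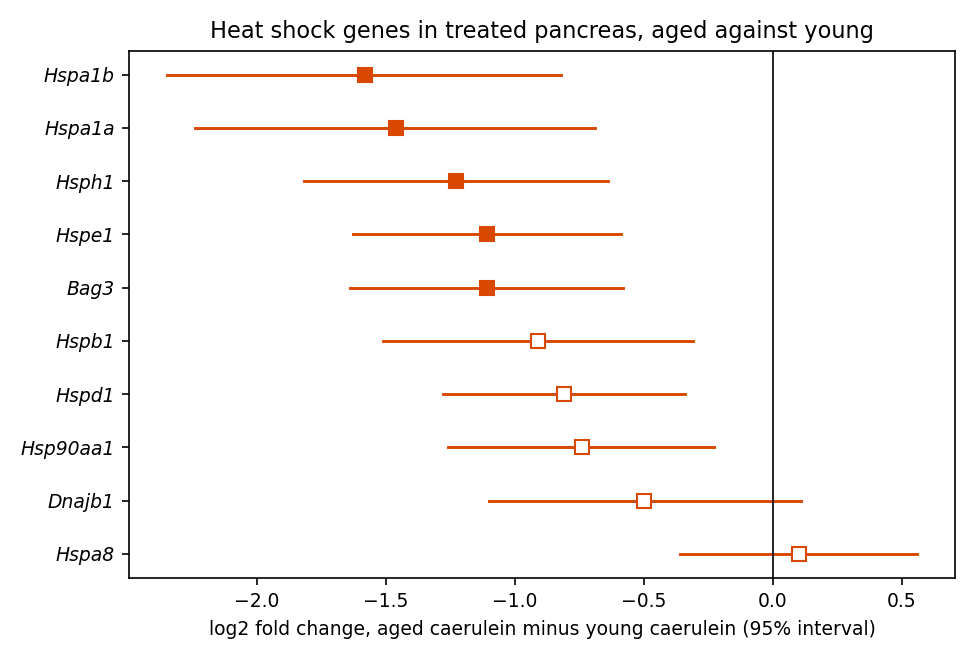
Log2 fold change of aged against young treated libraries with its 95% interval for each gene; filled squares passed the test at an adjusted p below 0.05. The estimates run from -1.58 for Hspa1b to 0.10 for Hspa8, and the intervals of Dnajb1 and Hspa8 include 0.

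These age calls depended on single libraries. Young treated mouse 2 gave the highest treated value of 9 of the 10 members, by 1.26 to 2.23 times the next library. Its macrophage and neutrophil markers summed to 27.4 CPM (9.08 to 16.2 in the other treated libraries) and its islet markers to 166 CPM (1090 and 2570 in the other young treated libraries, 166 to 2400 in the aged ones), and their part in its high values was not tested. Without it the log2 fold change of Hspa1b was -1.13 and that of Hspa1a -0.92, and 2 members (Bag3 and Hspe1) were still called. Over all genes the calls then were 269 in place of 526. Without young untreated mouse 2, which enters through the shared spread, 9 members were called, and 1921 genes in all. With any single aged treated library left out 0 members were called, and between 211 and 248 genes in all. This loss was not particular to aged treated libraries. Calls were also lost without either aged untreated library, which is outside this comparison, but those fits leave 1 library in that group. Without young treated mouse 1 or mouse 3 there were 3 members, and 215 and 171 genes in all. Scaled by library totals alone, 1 member (Bag3) was called, and 215 genes in all. The directions held in all these fits for every member except Hspa8.

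**Figure D4:**
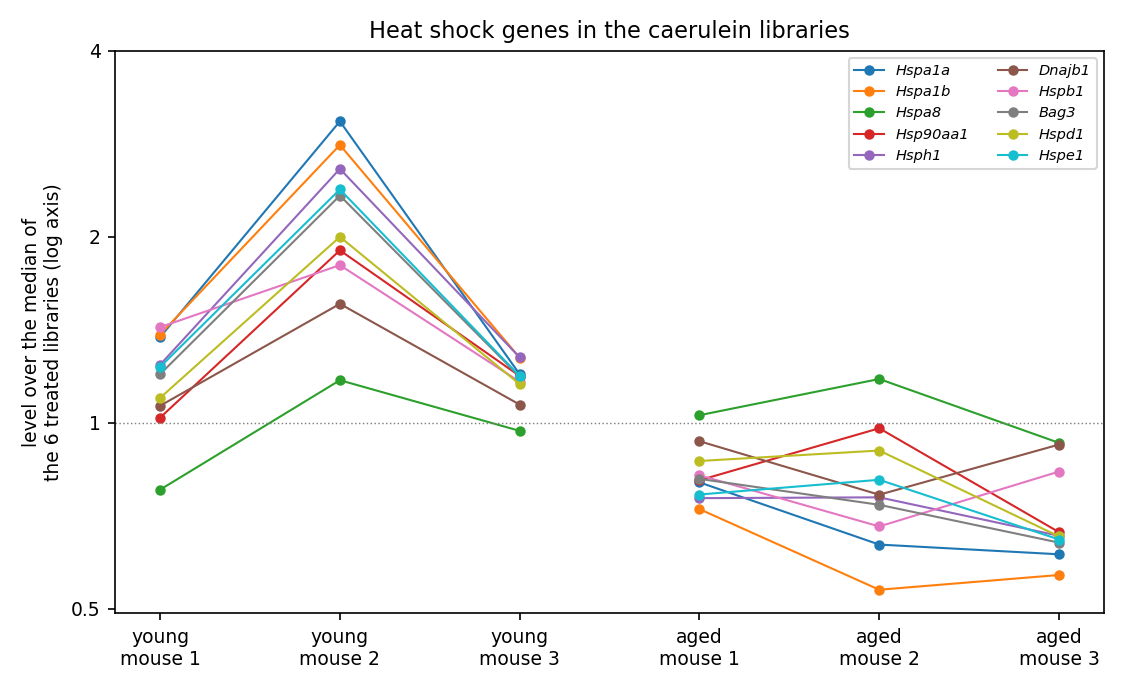
Level of each gene in the 6 treated libraries divided by its median over the 6 (log axis); lines join the values of 1 gene within an age group and carry no order. Young mouse 2 stands above the other libraries for 9 genes, and the 3 aged mice stand at or below 1 for every gene except Hspa8.

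Marker levels differed between the treated groups too. On unscaled totals, the acinar sum was between 230000 and 254000 CPM in aged and between 257000 and 274000 CPM in young treated libraries. The B and plasma cell sum was between 4.1 and 5.0 CPM in aged and between 0.0977 and 0.338 CPM in young treated libraries (Cd79b and Ms4a1 at 0 in the latter), and the ductal sums overlapped. Their part in the age difference was not tested.

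The test of whether the caerulein response itself differed between the ages called none of the 10 (2 genes, 0.0142% of all, were called). In this comparison 4 members had an unadjusted p below 0.05, as did 1758 of all 14113 genes. DESeq2 called 1 member (260 genes in all), and edgeR with no filter on low counts called 3 (674 genes in all). The difference of the log2 responses, aged minus young, was -1.24 ± 0.36 for Hspe1 (adjusted p = 0.204), -1.06 ± 0.42 for Hspb1 (adjusted p = 0.351), -0.99 ± 0.32 for Hspd1 (adjusted p = 0.262) and -0.94 ± 0.37 for Bag3 (adjusted p = 0.351). For Hspa8 it was -0.06 ± 0.31, with an interval from -0.74 to 0.63. For Hspa1b it was -0.33 ± 0.96. With single libraries left out it ran from -1.109 (without young untreated mouse 2) to 0.124 (without young treated mouse 2). Hspa1a was the only member with a positive difference, 1.70 ± 1.82 with an interval from -2.30 to 5.70. That value rests on 1 count of Hspa1a in the aged untreated libraries. A smaller response at 18 months was therefore not shown for any member by this test.

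The wider chaperone network was described through 10 lists of 113 genes outside the members, 106 of them tested. After caerulein 47 rose and 26 fell in young mice, and 47 rose and 21 fell in aged mice (24.7% and 21.2% of all genes were called lower). The split depends on the scaling: library totals alone, which move the median of all genes by 0.494 in young and 0.619 in aged mice, gave 65 higher and 9 lower in young and 67 and 4 in aged mice. Under that scaling Hsbp1 changed direction at both ages, Fkbp4 in young mice, and Hspa14, Cdc37l1, Bag1, Pfdn6, Clpp and Dnajc19 were no longer called lower in young mice.

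Among the regulators of the response, 1 of 7 tested genes rose and 1 fell in young mice. Hsf1, the factor that drives heat shock genes, rose by 1.30 ± 0.15 in young (adjusted p = 3.6e-05) and 1.5 ± 0.18 in aged mice (log2). Its level was 20.5 ± 1.28 CPM in young and 21.7 ± 3.52 CPM in aged treated libraries, and the age difference among treated mice was 0.09 ± 0.15 (adjusted p = 0.817). Hsf2, a related factor, did not pass at either age (young log2 0.50 ± 0.28, adjusted p = 0.161), nor did Hsf4 (0.27 ± 0.28, adjusted p = 0.438). Hsbp1, which binds HSF1 trimers, fell by 0.42 ± 0.11 in young mice under the TMM scaling.

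In the rest of the HSP70 system, 3 of 7 HSP70 and HSP110 genes rose and 2 fell in young mice. Hspa4l, an HSP110 relative, rose by 4.38 ± 0.16, from 3.28 ± 0.461 to 68.8 ± 10.9 CPM, and Hspa4 by 0.91 ± 0.12 (adjusted p = 1.53e-08 and 0.000102). Hspa13, a microsomal HSP70, fell by 2.54 ± 0.18, and the list median was -0.88 in young and -0.4 in aged mice. Of 11 J proteins 7 rose and 0 fell, with Dnaja1 at 3.72 ± 0.27, Dnajb2 at 2.74 ± 0.12 and Dnaja2 at 1.10 ± 0.11. Of 9 exchange factors and regulators 4 rose, such as Hspbp1 (1.17 ± 0.16) and Bag2 (1.62 ± 0.30), and 3 fell, with Bag4 down by 2.65 ± 0.30.

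Of 14 HSP90 genes and cochaperones 6 rose and 2 fell in young mice. Hsp90ab1, the constitutive HSP90, rose by 2.46 ± 0.16 from 192 ± 26.3 to 1060 ± 167 CPM, and the cochaperones Unc45a, Ptges3 and Stip1 rose by 1.82 ± 0.13, 1.65 ± 0.16 and 1.14 ± 0.12. Among 5 tested small heat shock proteins, Hspb8, the partner of Bag3, rose by 2.68 ± 0.21 and Cryab fell by 1.45 ± 0.29, with a list median of -0.28. The cytosolic chaperonin TRiC and its helper prefoldin had 10 of 14 genes higher, with Cct4 at 1.29 ± 0.11 and Cct8 at 1.30 ± 0.12, and 1 lower. Among 14 mitochondrial genes 6 rose and 4 fell, and Hspa9, the mitochondrial HSP70, rose by 2.15 ± 0.17.

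Of 15 endoplasmic reticulum chaperones 12 fell and 1 rose in young mice, with a list median of -0.83 beside -0.061 over all genes. Pdia4, a disulfide isomerase, fell by 2.09 ± 0.17 and Sdf2l1 by 2.07 ± 0.19, while Hspa5, the HSP70 of that compartment, rose by 1.65 ± 0.19. In aged mice 4 fell and 3 rose. With library totals alone the counts were 6 lower and 3 higher in young, and 1 lower and 8 higher in aged mice. Of 10 other heat-inducible and protein disposal genes 8 rose and 0 fell at each age, among them in young mice the autophagy receptor Sqstm1 (3.26 ± 0.20), the heme-degrading enzyme Hmox1 (3.44 ± 0.33) and the collagen chaperone Serpinh1 (2.40 ± 0.19).

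**Figure D5:**
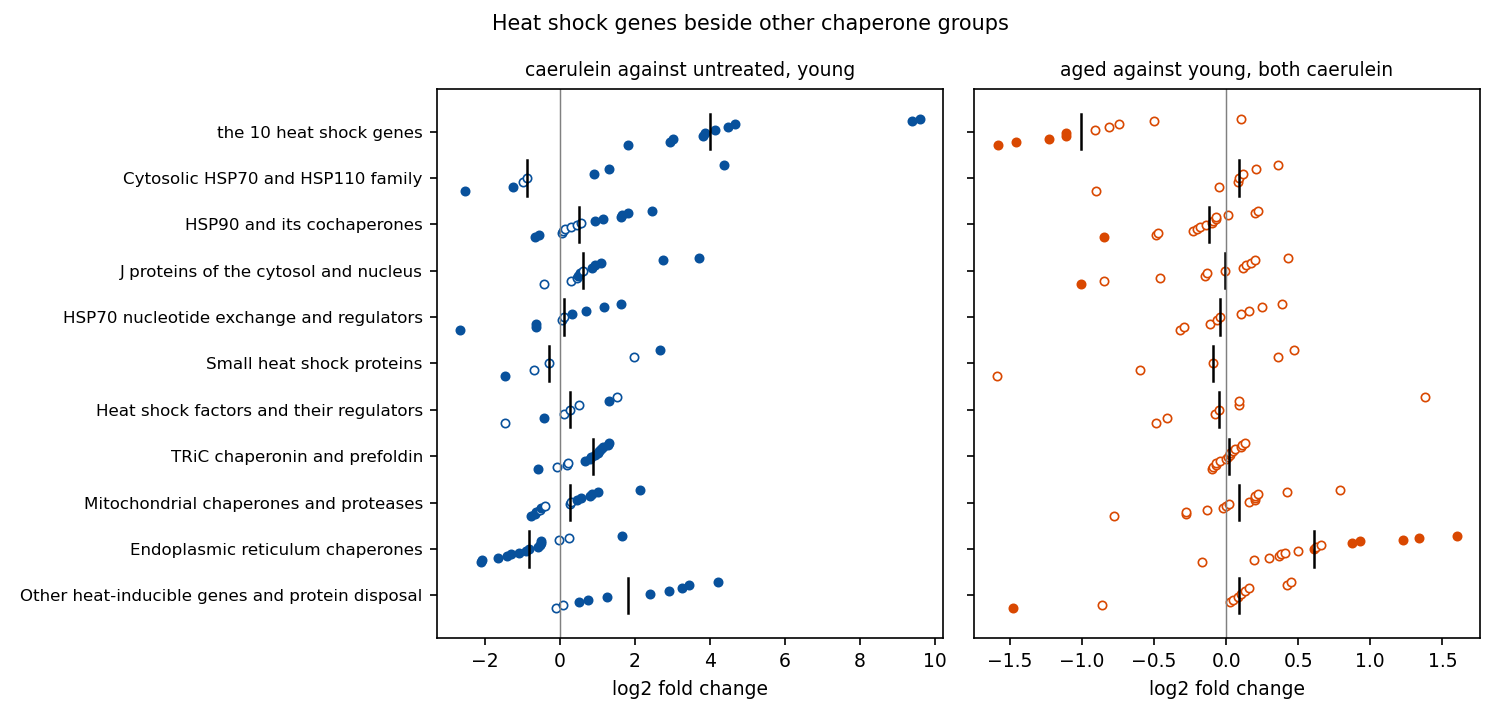
Log2 fold change of each tested gene in the 10 members and the 10 wider lists, for caerulein against untreated in young mice (left) and aged against young among treated mice (right); filled points passed the test and black bars are list medians. The members lie furthest right on the left side (median 4.01) and furthest left on the right side (median -1.01), while the endoplasmic reticulum list has medians of -0.83 and 0.61 and the HSP70 and HSP110 list has medians of -0.88 and 0.09.

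Between aged and young treated mice 9 of the 106 list genes were called, 3 lower and 6 higher (2.46% of all genes were called higher). The lower ones were Dnaja1 (158 ± 19.1 against 317 ± 99.3 CPM, log2 -1.01 ± 0.25, adjusted p = 0.0483), Serpinh1 (29.9 ± 5.92 against 83.5 ± 14.5 CPM, log2 -1.48 ± 0.19, adjusted p = 0.00267) and Chordc1, an HSP90 cochaperone named here after its value was seen (log2 -0.85 ± 0.17, adjusted p = 0.0185). All 6 higher genes belong to the endoplasmic reticulum list, with Sdf2l1 at 1.34 ± 0.19 (adjusted p = 0.00357) and Pdia4 at 0.87 ± 0.16 (adjusted p = 0.0155). Without young untreated mouse 2 the counts were 6 lower and 16 higher, and without young treated mouse 2 they were 1 lower and 6 higher, where Dnaja1 was not called (adjusted p = 0.154). With library totals alone neither Dnaja1 (adjusted p = 0.128) nor Pdia4 (adjusted p = 0.189) was called. Hsp90ab1 (-0.23 ± 0.15), Hspa4l (0.09 ± 0.14) and Hspb8 (0.36 ± 0.20) did not pass in this comparison.

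Among the genes whose pattern over the 11 libraries was most like the members' mean were Dnaja1 (Pearson r = 0.9966), Zfp110 (0.9951), Rbpms (0.9916) and Tjp1 (0.9908), out of 7258 genes with a mean of at least 5 CPM. The libraries share the treatment contrast, and 1709 of these genes had an r above 0.9, so the ranking describes likeness only. Tjp1, a tight junction scaffold, stood at 138 CPM on average in young and 91.3 CPM in aged treated libraries (log2 -0.60 ± 0.12, adjusted p = 0.0178).

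The authors' deposited tables give all 10 members an adjusted p below 0.05 for caerulein against untreated at both ages, with log2 fold changes from 1.79 to 9.64 in young and from 0.54 to 11.51 in aged mice. For Hspe1 in aged mice the authors' deposited table has a log2 fold change of 0.54 and an adjusted p of 0.00431, where the test used here did not pass. Between the ages, the authors' deposited tables have 0 of 10 below 0.05 in untreated and 7 of 10 in treated mice. The share of all genes below 0.05 in those tables was not counted here, so these counts do not set the members against other genes.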

How the data were processed

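Bulk pancreas RNA was captured by poly(A), and reads were aligned to mm10 with HISAT2 2.0.5 and assigned to genes by featureCounts 1.5.0-p3 (from the submitters' processing notes). For the annotation release and the strand setting, nothing is stated in the labels or headers used. The table deposited by the authors holds unnormalised whole-number read counts. The authors' 4 deposited comparison tables hold log2 fold changes and adjusted p-values, per the file headers. FPKM values were not used.

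Every other value was computed from the counts. Genes were filtered with filterByExpr, scaled by TMM and fitted in 1 model of 4 groups with edgeR 4.0.16 (R 4.3.3). The 5 comparisons were tested by quasi-likelihood F tests with Benjamini-Hochberg adjustment over 14113 genes and calls at an adjusted p below 0.05. Levels are CPM after TMM scaling, with the SD over libraries, and marker sums use unscaled totals. Levels are compared between genes only after division by gene length as the count table gives it. The ranks depend on that length, and other lengths were not tried. Levels were also not adjusted for stretches shared with other genes, which run from none for Hsph1, Dnajb1 and Bag3 to 49.3% for Hspa8. For Hspe1 it is 1474 bases, while its coding transcripts hold 625 different stretches of 150 bases. The members' proteins were not analysed here.

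The members and lists were chosen with earlier results of these data known. Besides the members, the text names the 3 genes of each list with the smallest p in the young caerulein comparison, up to 2 called against the list's direction, fixed genes such as Hsf1, Hsf2 and Hsf4, and the 5 genes most like the members. Some genes that this rule takes are not reported here. On simulated counts for the treated age comparison (13514 genes tested), 35.7% of genes changed by 1 on the log2 scale and 72.3% of those changed by 2 were recovered. Alternatives were other filters, scalings, fits and tests (DESeq2 1.42.0 among them), the mouse number as a block, the HSP70 pair summed, and each library left out. Libraries of different groups that carry the same mouse number were taken to be of different mice. Deviations of same-numbered libraries correlated by 0.106, 0.149 and 0.114 between young untreated and young treated mice, above 0.1 in each pair, and in no other pair of groups was every correlation above 0.1.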

Additional observations from a re-analysis of the deposited data

How the results depend on the processing

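The rises after caerulein in young mice were called for all 10 members in every alternative fit that held them. In aged mice the same 9 were called in every fit that held them, with Hspe1 added in 4 of 20. In the fit with the HSP70 pair summed, the sum is counted as Hspa1a and Hspa1b is absent. For aged against young treated mice, 5 members were called, against 8 with no filter on low counts, 1 with library totals, 9 with only the groups compared and 3 with the mouse number as a replicate block. Leaving out 1 library at a time gave 0 to 9. The cause of these shifts was not tested. Over 20 alternatives Hspa1a was called in 9, Hsph1 in 13, Bag3 in 14 and Hspe1 in 14, and Hspa1b in 10 of 19. For the difference between the responses, 0 members were called, against 3 with no filter and 1 with DESeq2. Over all genes, the calls for aged against young were 526 in treated mice (171 to 1921 with a library left out, 215 with library totals, 814 with no filter, 824 with DESeq2, 1686 with only the groups compared, 345 with the block). In untreated mice they were 13 (2 to 55 with a library left out, 707 with no filter, 59 with DESeq2, 3 with library totals or the block, 2 with only the groups compared), and for the difference between the responses 2 (0 to 311, 674 with no filter, 65 with the stricter filter, 260 with DESeq2, 0 with library totals). The stricter filter left 4200 calls in place of 7376 for caerulein in young and 4184 in place of 6804 in aged mice, with fewer genes tested. Counting 2 adjoining units in place of 3 raised the members with a promoter match from 3 to 7.

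Log2 values of the members that changed sign were all of uncalled results, while Hsbp1 and Fkbp4 of the wider lists, called lower, changed sign with library totals (young 0.11 and 0.01, aged Hsbp1 0.05). With library totals alone, Hspa8, Hspd1 and Hspe1 were -0.141, -0.05 and -0.12 in untreated mice, and Hspa8 was -0.015 in treated mice and 0.126 for the difference between the responses. With single libraries left out, the value in untreated mice ran from -0.149 to 0.079 for Hsp90aa1, from -0.373 to 0.373 for Dnajb1 and from -0.163 to 0.49 for Hspb1. In treated mice it ran from -0.035 to 0.256 for Hspa8, and for the difference between the responses from -1.109 to 0.124 for Hspa1b and from -0.289 to 0.1 for Hspa8. Between young untreated and young treated mice, where same-numbered libraries deviated together, the block changed no call of the members. Young untreated mouse 1 nevertheless correlated best with young treated mouse 3 (0.149). Between the treated ages same-numbered libraries did not deviate together (-0.207, 0.104 and -0.046), and there the block also left Dnaja1 uncalled (adjusted p = 0.0519). With the block Hspa8 was 0.029 for the difference between the responses. Without young untreated mouse 2, 7 of 10 members kept their rank of levels per length in young untreated mice, an alternative chosen after seeing the data. With 2 aged untreated libraries and few counts, changes of Hspa1a and Hspa1b before treatment are the least precise.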
